A study of Homo sapiens with 2 samples.

Results

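Integrin and laminin subunits were read in cells grown out of human embryoid bodies with and without an inhibitor of TGF-β type I receptors. Integrins are receptors made of an α and a β subunit that hold a cell to its matrix and signal from the contact, and the α subunit largely sets which matrix protein is bound. Laminins are trimers of an α, a β and a γ chain that form the sheet of the basement membrane. In skeletal muscle, the laminin with the LAMA2 chain surrounds each fibre and the integrin with the ITGA7 subunit is one of its receptors. The set was defined by gene name as 29 genes, and every probe set that the platform annotation assigns to a member alone was read. Of these genes, 28 had such a probe set, 80 probe sets in all among 54675, and LAMA3 was not analysed here. The whole array gave values for 19775 genes.

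The cells were HUES9, an established human embryonic stem cell line, at passage 32. They were kept for 10 days as embryoid bodies, clumps of stem cells that differentiate in suspension, and attached to fibronectin-coated dishes in a medium of defined composition with albumin, lipids and ITS supplement. SB-OG cultures received SB-431542, which blocks the kinases of the receptors ALK4, ALK5 and ALK7 that carry TGF-β and activin signals, at 10 µM as embryoid bodies and at 1 µM as outgrowths, and control-OG cultures received the solvent DMSO at 0.01%. At outgrowth passage 5, 3 samples of a condition were mixed and their RNA was read on 1 Affymetrix array, so n = 1 per condition and replication is lacking and no p-value is given. Both conditions share the line, the fibronectin coating and the medium.

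The background level of an array, set by 213 probe sets for genes assumed silent in these cells, came to 32.6 for control-OG and 27.6 for SB-OG. A value under it was raised to it before a difference was taken, so where only 1 array exceeds it a fold is a lower bound, written "at least". A gene's value is that of its brightest probe set, the one with the highest log2 intensity averaged over both arrays. Each difference is the log2 value of SB-OG less that of control-OG, and 2-fold is the limit for calling a gene higher or lower. Different probe sets of 1 gene, each above background on both arrays, gave differences with an SD of 0.45 over 4930 genes. The SD was 0.37 over the 10 members with at least 2 such probe sets. This is the only spread these 2 arrays give, and it leaves out probe sets under background on either array. Of 12 skeletal muscle markers, all 12 were above background on SB-OG and 6 on control-OG, and their summed intensity went from 468 to 67389. Fibroblast markers summed to 108866 on control-OG and 47719 on SB-OG, with all 10 above background on both. Of these, 8 were at least 2-fold lower and 1, PDGFRB, was 2.07-fold higher. Epithelial markers summed to 17108 and 608.8. KRT7 was nearly level at 42.9 and 41.1, while KRT8 was lower by 51.3-fold, KRT18 by 29.5-fold, KRT19 by at least 178-fold and DSP by 9.50-fold. CDH1 went the other way, from 26.9 to 82.8, at least 2.54-fold higher, and GRHL2, ESRP1, EPCAM and the claudins CLDN3, CLDN4 and CLDN7 were under background by their brightest probe set, with another of ESRP1 above it at a log2 difference of 0.21. Endothelial markers summed to 2078 and 150.4: KDR went from 932.9 to 18.7, FLT1 from 681.2 to 53.8 and TEK from 403.5 to under background, at least 14.6-fold lower, while CDH5 and VWF were under background on both. Another probe set of TEK stood at -0.61. PECAM1 went the other way, from 25.5, under background, to 37.9, at least 1.16-fold higher. Blood cell markers summed to 292.9 and 77.3, with CD14 at 215.5 and 1.79, at least 7.81-fold lower, and PTPRC and SPI1 under background by their brightest probe set, although other probe sets of PTPRC were above it and differed by -0.87 to -0.49. Neural and Schwann cell markers summed to 6852 and 10609, and TUBB3, at 4141 and 6918, made up most of both sums. DCX was higher by at least 42.7-fold, NEFM by 38.3-fold, STMN2 lower by at least 94.4-fold and SOX10 under background. Pluripotent cell markers summed to 106.4 and 188.8, with SOX2 at least 4.52-fold higher but at -0.074 by another probe set, and NANOG under background. SALL4 moved opposite to SOX2, from 44.45 on control-OG to 1.26 on SB-OG, at least 1.61-fold lower. The part of these other cell types in the values below was not tested, and in RNA of a mixed culture fewer cells of a type and less RNA per cell cannot be told apart.

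The subunits parted in both directions. Background was exceeded on at least 1 array by 25 of the 28 genes. Of these, 5 had at least 2-fold more signal on SB-OG (ITGA4, ITGA7, ITGA6, ITGB8 and LAMA4), beside 12.4% of all 12499 genes above background, and 9 were at least 2-fold lower (ITGA11, LAMA2, ITGA3, ITGA5, ITGA2, ITGB5, LAMB1, ITGAV and LAMB2), beside 13.0% of all genes. The other 11 stayed within 2-fold, and ITGB3, ITGB7 and LAMB3 were under background on both arrays. The members' median difference was -0.48 and that of all genes -0.02. With SB-OG rescaled on the hybridisation controls, which moved every gene up by 0.48, 7 members were higher (with ITGA1 and ITGA9) and 4 lower (without ITGA2, ITGB5, LAMB1, ITGAV and LAMB2), and the members' median was -0.0024. ITGA4, ITGA6, ITGA7 and ITGB8 were higher, and ITGA11, LAMA2, ITGA3 and ITGA5 lower, at 3-fold as well. ITGA4, ITGA7, ITGA6 and ITGB8 stood at ranks 94, 113, 123 and 138 of the 12499 genes ordered from the highest difference, where 142 genes were at least 16-fold higher.

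**Figure D1:**
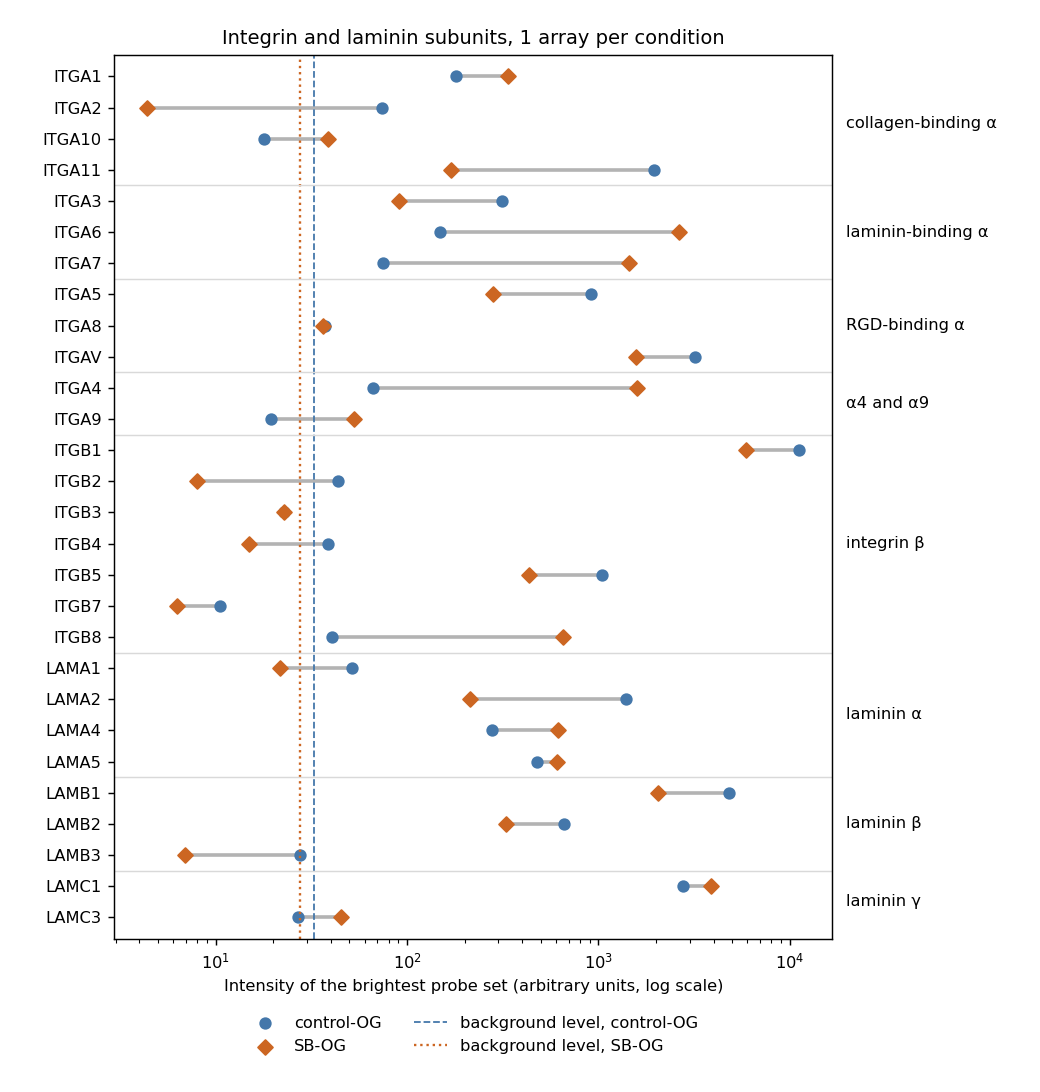
Intensity of the brightest probe set of each of 28 subunit genes on the control-OG array (circles) and the SB-OG array (diamonds), on a log axis in arbitrary units, with the background level of each array as a dashed or dotted line. ITGA4, ITGA6, ITGA7 and ITGB8 lie far to the right on SB-OG, and ITGA11 and LAMA2 far to the left; levels of different genes come from different probes and are not comparable.

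**Figure D2:**
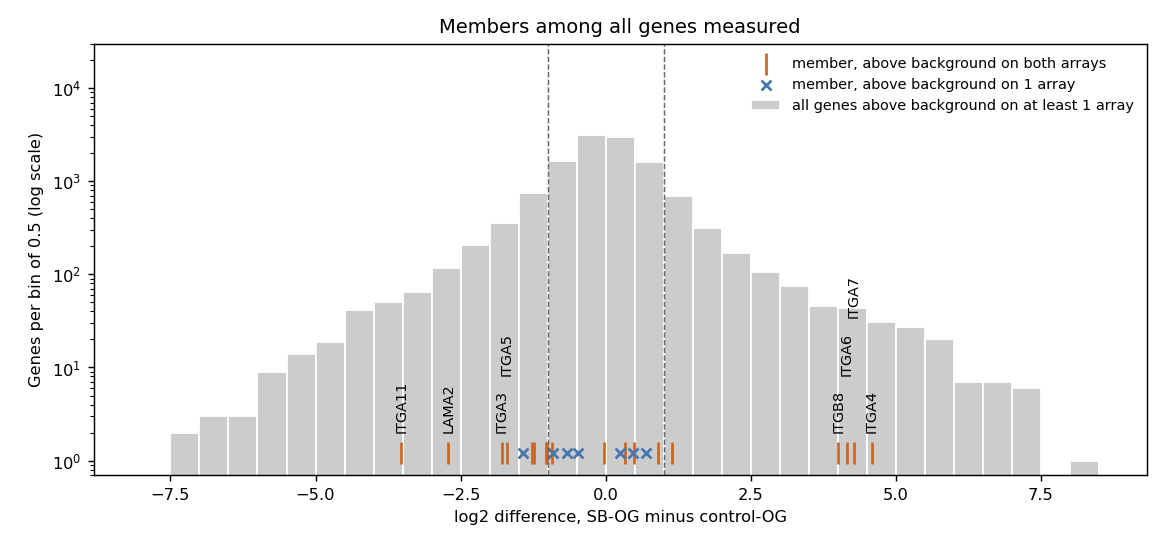
Number of genes, on a log axis, in bins of the log2 difference SB-OG minus control-OG for the 12499 genes above background, with the 25 members marked at the foot as ticks (above background on both arrays) or crosses (on 1 array) and dashed lines at 2-fold. The members above 1.5 in size are named, and 4 of them lie between 4.01 and 4.59 while most of the rest lie within 2 of no difference.

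The sequences next to the transcription start are shown for the members at least 4-fold apart, since they are the ones the comparison turns on. They are the 250 bases before each start in RefSeq, build GRCh38.p14, 5′ to 3′ on the gene's strand, where 21 of the 29 genes had an entry; ITGA7 was not among these 21. Capitals mark CANNTG, the E-box bound by MYOD1 and other basic helix-loop-helix factors, and CAGAC, the short element bound by SMAD proteins, each searched on both strands; CAGCTG, the form of the E-box that myogenic factors favour, is contained in CANNTG.
ITGA4, chr2:181457136-181457385, plus strand: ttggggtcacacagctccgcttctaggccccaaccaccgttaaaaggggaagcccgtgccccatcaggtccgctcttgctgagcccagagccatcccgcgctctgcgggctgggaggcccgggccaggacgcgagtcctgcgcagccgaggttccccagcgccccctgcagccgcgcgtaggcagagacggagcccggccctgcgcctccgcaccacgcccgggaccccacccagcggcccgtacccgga
ITGA6, chr2:172427086-172427335, plus strand: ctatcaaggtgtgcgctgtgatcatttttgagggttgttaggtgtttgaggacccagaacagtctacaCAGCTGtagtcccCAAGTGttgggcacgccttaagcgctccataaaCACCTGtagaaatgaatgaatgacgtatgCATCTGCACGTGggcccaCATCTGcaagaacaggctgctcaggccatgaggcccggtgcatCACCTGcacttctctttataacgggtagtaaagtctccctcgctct
ITGB8, chr7:20330650-20330899, plus strand: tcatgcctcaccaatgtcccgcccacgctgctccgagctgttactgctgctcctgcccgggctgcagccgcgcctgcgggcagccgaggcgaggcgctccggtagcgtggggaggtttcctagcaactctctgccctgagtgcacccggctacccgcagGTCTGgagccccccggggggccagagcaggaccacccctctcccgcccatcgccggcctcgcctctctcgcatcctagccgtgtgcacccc
ITGA11, chr15:68432164-68432413, minus strand: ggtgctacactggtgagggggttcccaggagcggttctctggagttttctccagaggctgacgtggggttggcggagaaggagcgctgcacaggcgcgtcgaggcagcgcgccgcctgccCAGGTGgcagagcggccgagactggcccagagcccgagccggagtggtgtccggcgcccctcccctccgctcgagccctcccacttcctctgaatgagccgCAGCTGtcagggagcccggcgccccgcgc
LAMA2, chr6:128882888-128883137, plus strand: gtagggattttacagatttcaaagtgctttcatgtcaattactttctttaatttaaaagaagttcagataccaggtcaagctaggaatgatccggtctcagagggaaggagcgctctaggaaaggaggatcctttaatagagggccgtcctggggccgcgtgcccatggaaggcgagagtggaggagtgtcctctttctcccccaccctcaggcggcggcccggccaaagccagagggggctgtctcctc
The ITGA6 window held 7 CANNTG matches, 1 of them CAGCTG, and that of ITGA11 held 2, 1 of them CAGCTG. The windows of ITGA4, ITGB8 and LAMA2 held none. Of 27303 promoters of the same length, 62.2% held at least 1 CANNTG match, 13.8% held CAGCTG, and 0.121% (33 promoters) held at least as many CANNTG matches as ITGA6. The ITGA6 window held the most of the 21 members with an entry, so this share is that of a largest count and not a test. CAGAC was found once before ITGB8, reading GTCTG on the printed strand, and in 37.8% of all promoters. Of the 21 members with an entry, 9 held CANNTG and 10 held CAGAC. A match is only a run of letters, and no binding was measured in this series.

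Among the α subunits that bind laminin, ITGA6 and ITGA7 were higher and ITGA3 lower in SB-OG. ITGA7, the laminin receptor subunit of skeletal and cardiac muscle, read 74.7 on control-OG and 1451 on SB-OG, 19.4-fold higher. Its second probe set read 25.1, under background, and 798.5, at least 24.5-fold higher. ITGA6, which pairs with ITGB1 or, in hemidesmosomes of epithelia, with ITGB4, went from 148 to 2636, 17.8-fold higher. Its second probe set went from 128.2 to 2347, 18.3-fold higher, so both probe sets of ITGA6 gave nearly the same fold. ITGA3, a receptor for laminins with the LAMA5 or LAMA3 chain, went the other way, from 312.8 to 90.3, 3.47-fold lower by its single probe set. A common scaling factor of an array cancels in a ratio of 2 genes, and the ratio of ITGA7 to ITGA3 was 67.3-fold higher in SB-OG and that of ITGA6 to ITGA3 61.7-fold higher.

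The α subunits that bind collagen did not move together. ITGA11, a receptor of fibrillar collagen on mesenchymal cells and fibroblasts, read 1945 on control-OG and 169.4 on SB-OG, 11.5-fold lower. Its other probe sets went from 608.1 to 73.5, 8.27-fold lower, and from 110.9 to 11.1, at least 4.02-fold lower, so all 3 gave the same direction. ITGA2, a collagen receptor of epithelia and platelets, was above background on control-OG only, at 74.4 against 4.38, at least 2.69-fold lower, and at 55.6 against 2.82 by its other probe set, at least 2.01-fold lower. These bounds rest on the background level: with the 99th percentile in place of the 95th the ITGA2 difference was 0.056, and scaling on the hybridisation controls also ended the call. ITGA1, a receptor of basement membrane collagen, read 180.3 and 336, 1.86-fold higher, and 61.9 and 127.7, 2.06-fold higher, by a second probe set, on either side of the limit; its difference was 1.37 with the hybridisation controls. ITGA10, a collagen receptor of cartilage, was near background at 17.9 and 38.6, at least 1.18-fold higher. The ratio of ITGA1 to ITGA11 was 21.4-fold higher in SB-OG.

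Among receptors for fibronectin and related proteins, ITGA4 was higher and ITGA5 and ITGAV lower. ITGA4 binds VCAM1 and an alternatively spliced part of fibronectin and is best known from leukocytes, neural crest and muscle precursors. It went from 66.3 on control-OG to 1597 on SB-OG, 24.1-fold higher, the largest difference upward among the 25 members. Its other 3 probe sets went from 46.3 to 663.2, from 31.7 to 832 and from 21.0 to 721.9, so that all 4 were higher, with folds of 14.3, at least 25.5 and at least 22.2. ITGA5, the classical fibronectin receptor subunit, which recognises the RGD motif, went from 912 to 280.7, 3.25-fold lower. The ratio of ITGA4 to ITGA5 was 78.3-fold higher in SB-OG. ITGAV, the subunit of vitronectin receptors and of receptors that release TGF-β from its latent form, went from 3206 to 1575, 2.04-fold lower, at the limit. That call was lost under quantile normalization, lowess correction, centring and scaling on the hybridisation controls, where ITGAV came to -0.55 at the least. ITGA8, a receptor for nephronectin in kidney and smooth muscle, was just above background at 37.1 and 36.3. ITGA9, a receptor for tenascin and VCAM1, read 19.5 and 52.6 by its brightest probe set, at least 1.61-fold higher, and its other 3 probe sets were under background on both arrays.

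Of the β subunits of these receptors, ITGB8 was higher in SB-OG, ITGB5 lower and ITGB1 just inside the limit. ITGB1, the common partner of the laminin, collagen and fibronectin receptor subunits above, read 11212.5 on control-OG and 5913 on SB-OG, 1.90-fold lower. Other probe sets went from 6382 to 2805, 2.27-fold lower, and from 4446 to 2774, 1.60-fold lower. A dim probe set of ITGB1 went the other way, from 28.3 to 190.7, at least 5.85-fold higher. The remaining probe sets of ITGB1 were under background on both arrays. With all 7 averaged, these included, the difference was 0.70, so that value rests partly on background readings. Set against ITGB1 on the same arrays, ITGA4, ITGA7 and ITGA6 were higher by 45.7-fold, 36.8-fold and 33.8-fold, ITGA1 was 3.53-fold higher, and ITGA5, ITGA3 and ITGA11 were lower by 1.71-fold, 1.83-fold and 6.05-fold. ITGB5, a vitronectin receptor subunit that pairs with ITGAV, went from 1047 to 436.1, 2.40-fold lower. Its other probe sets above background gave 2.10-fold and 1.57-fold lower, the call was lost with probe sets averaged, with specific probe sets only and with the hybridisation controls, and the ratio of ITGAV to ITGB5 differed by 1.18-fold. ITGB8, which pairs only with ITGAV and takes part in releasing TGF-β from its latent complex, went from 40.7, near background, to 655.7, 16.1-fold higher. The other 4 probe sets of ITGB8 stayed at or near background, at 31.2 or less on both arrays. With all 5 averaged, the control-OG mean was under background, so the difference of at least 0.25 is a lower bound.

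The β subunits of leukocytes, platelets and hemidesmosomes were at or near background. ITGB2, the leukocyte subunit, read 43.8 on control-OG and 8.01 on SB-OG by its brightest probe set, at least 1.59-fold lower. ITGB4, the hemidesmosome partner of ITGA6, read 38.4 and 15.0, at least 1.39-fold lower, and its other 4 probe sets were under background on both arrays. ITGA6 was thus high on SB-OG while no probe set of ITGB4 was above background there. ITGB3, a vitronectin and fibrinogen receptor subunit, did not exceed 24.6 on either array by any of 7 probe sets, and ITGB7, a lymphocyte subunit that pairs with ITGA4, read 10.5 and 6.28. Of 9 further integrin and laminin genes outside the set, 7 had a probe set of their own. Only ITGAE was above background, at 1625 and 1466, and ITGA2B, ITGAD, ITGAL, ITGAM, ITGAX and LAMB4 were under it on both arrays.

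**Figure D3:**
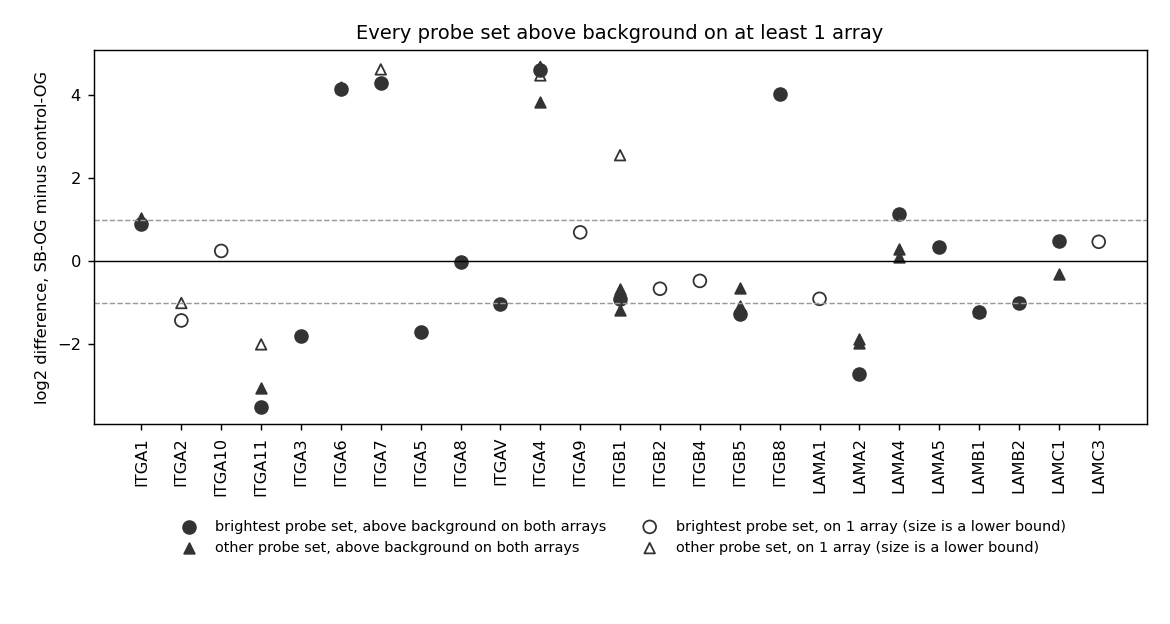
The log2 difference SB-OG minus control-OG for each probe set of the 25 members that was above background on at least 1 array, with circles for the brightest probe set of a gene, triangles for its others, and open symbols where the size is a lower bound. A probe set of ITGB8, at 20.2 and 31.2, is left out because its SB-OG reading lies between the background levels of the arrays. All probe sets of ITGA4, ITGA6 and ITGA7 lie above 3.8, those of ITGA11 and LAMA2 below -1.8, and those of ITGB1, LAMA4 and LAMC1 spread around the dashed 2-fold lines or around 0.

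Of the laminin α chains, LAMA2 was lower in SB-OG and LAMA4 higher. LAMA2, the chain of the muscle basement membrane that is mutated in a congenital muscular dystrophy, read 1398 on control-OG and 213.3 on SB-OG, 6.56-fold lower. Other probe sets went from 1046 to 283, 3.70-fold lower, and from 830.7 to 213.3, 3.89-fold lower, and the last was under background. LAMA4, a chain of vessel, fat and muscle basement membranes, went from 277.7 to 612, 2.20-fold higher by its brightest probe set. Its other probe sets above background read 59.7 and 72.9, and 62.9 and 67.4, folds of 1.22 and 1.07, and with all probe sets averaged LAMA4 stood at 0.63, under the limit. LAMA5, the chain of most mature basement membranes, read 479 and 604.7, 1.26-fold higher. LAMA1, the early embryonic chain, was near background at 51.9 and 21.6, at least 1.88-fold lower. By the brightest probe sets, the ratio of LAMA4 to LAMA2 was 14.4-fold higher in SB-OG and that of LAMA5 to LAMA2 8.28-fold higher. The other probe sets of LAMA4 and LAMA2 above background differed less, so both ratios are smaller with them.

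Of the β and γ chains, which each α chain needs to form a trimer, both β chains above background were lower in SB-OG and both γ chains were within 2-fold. LAMB1 went from 4807 on control-OG to 2040 on SB-OG, 2.36-fold lower, and from 3237 to 1404, 2.31-fold lower, by its second probe set. LAMB2, the β chain found at the neuromuscular junction and in the glomerulus, went from 664 to 329.3, 2.02-fold lower by its single probe set. The LAMB2 call was lost with centring, with the pseudocount and with the hybridisation controls, and that of LAMB1 with the last of these, at -0.76. LAMB3, of the epidermal laminin, was under background at 27.5 and 6.95. LAMC1, the γ chain of most laminins, went from 2749 to 3862, 1.41-fold higher, by its brightest probe set and from 1405 to 1141, 1.23-fold lower, by the other, so its probe sets disagreed in sign. LAMC3, a γ chain of few tissues, read 27.1 and 45.0, at least 1.38-fold higher. Set against the brightest probe set of LAMC1, LAMA2 was 9.21-fold lower and LAMB1 3.31-fold lower, while LAMA4 was 1.57-fold higher and LAMA5 within 1.11-fold. Each of these ratios changes with the other LAMC1 probe set, which differed in sign.

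Among other proteins of the basement membrane, NTN4 and COL4A5 were higher and COL15A1, FBLN1, NID2 and COL18A1 lower. Of 18 listed genes, 16 were above background, with 2 at least 2-fold higher (12.5%, beside 12.4% of all genes) and 4 lower (25%, beside 13.0%), and a median of -0.16. NTN4, a netrin related to laminins that binds the LAMC1 chain, went from 115.7 to 566.5, 4.89-fold higher, and COL4A5, a type IV collagen chain, from 413.9 to 1596, 3.86-fold higher. COL15A1 was 8.42-fold lower, FBLN1 2.70-fold, NID2, a nidogen that links laminin to type IV collagen, 2.63-fold, and COL18A1 2.56-fold. The other probe sets of FBLN1 ranged from -1.02 to 0.051. The main type IV collagen genes stayed within 2-fold, COL4A1 at 6400 and 6807 and COL4A2 at 9736 and 6425, as did HSPG2, the perlecan gene, at 1478 and 1454. Of 5 measured laminin receptors outside the integrins, SDC2, a syndecan, went from 908.9 to 4179, 4.60-fold higher, and SDC4, the syndecan of focal adhesions, from 1165 to 175.2, 6.65-fold lower. BCAM, a receptor of the LAMA5 chain, was at least 2.42-fold higher with another probe set at -0.16, and SDC1 was 2.15-fold lower.

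Ligands of integrins other than laminin were lower or within 2-fold. Of 15 listed, 13 were above background, none was 2-fold higher, beside 12.4% of all genes, and 3 were lower (23.1%, beside 13.0%), with a median of -0.48. TGFBI, a secreted adhesion protein that TGF-β induces, was 15.1-fold lower, MFGE8, an RGD protein read by ITGAV receptors, went from 867.2 to 160.9, 5.39-fold lower, and SPP1, osteopontin, was 2.72-fold lower. FN1, which was also the coating of the dishes as protein, read 16499.5 and 10159, 1.62-fold lower, with other probe sets from -4.09 to -0.71. VCAM1, the cell-surface ligand of ITGA4, read 132 and 197.2, 1.49-fold higher, and NPNT, the ligand of ITGA8, 4576 and 4830.

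The complex inside the cell that ties integrins to actin held genes that were higher, lower and within 2-fold, in shares near those of all genes. Of 38 listed genes, 30 were above background, with 3 higher (10%, beside 12.4% of all genes), 5 lower (16.7%, beside 13.0%) and 22 within 2-fold (73.3%, beside 74.6%), and a median of -0.26. ITGB1BP2, the gene of melusin, a protein of striated muscle that binds the tail of ITGB1, went from 16.1, under background, to 1081, at least 33.2-fold higher. FERMT1, the kindlin of epithelia, was 7.59-fold lower, TNS3, a tensin, 5.58-fold, NEDD9, a docking protein, 5.46-fold and CIB1 2.88-fold. The other probe sets of FERMT1 stood between -1.91 and -0.58, and that of NEDD9 at -0.54. FERMT2, the kindlin of mesenchymal cells, read 2984 and 4042, VCL, vinculin, 4338 and 5752, and ILK, the integrin-linked kinase, 969.8 and 809.3. Another probe set of VCL was higher, at a log2 difference of 1.55. TLN1, talin, was 2.29-fold lower on its brightest probe set but higher, at 2.96 as a log2 difference, by another. Of 11 measured membrane proteins that associate with integrins, 5 were lower (45.5%, beside 13.0% of all genes) and none higher (beside 12.4%), with a median of -0.92. They were the tetraspanin TSPAN4 at 5.12-fold, BSG at 3.66-fold, CD47 at 3.20-fold, PLAUR, the urokinase receptor, at 3.19-fold and SLC3A2 at 2.11-fold. The other probe sets of CD47 ranged from -1.54 to 0.31. CD151, the tetraspanin that binds ITGA3 and ITGA6, read 1196 and 699.2, 1.71-fold lower.

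**Figure D4:**
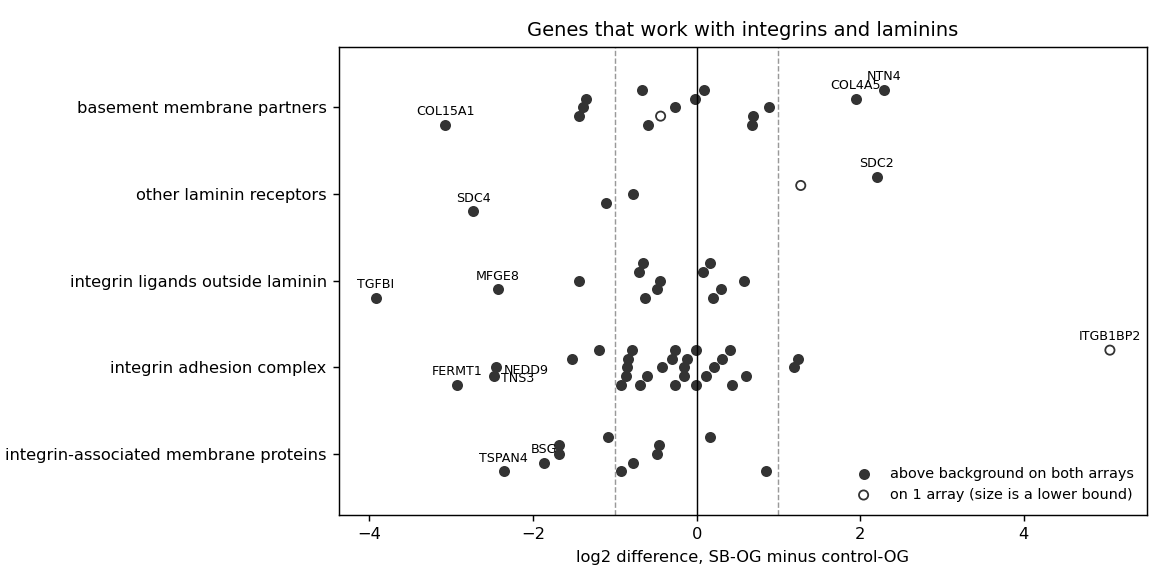
The log2 difference SB-OG minus control-OG of genes above background in 5 lists of proteins that work with integrins and laminins, 1 point per gene, with open points where the size is a lower bound and dashed lines at 2-fold. FREM2, at 3.22 and 31.2, is left out because its SB-OG reading lies between the background levels of the arrays. ITGB1BP2 at 5.05 lies far from the rest of the adhesion complex, where 22 of 30 genes are within 2-fold, and no ligand or associated membrane protein lies above 1.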

How the data were processed

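Biotin-labelled RNA of 1 mixture per condition was read on 1 array each, per the labels. The deposited intensity values, linear and 54675 per array, have a trimmed mean (2% off each end) of 150.02 on both arrays, so the arrays appear scaled to one level; the sources used here do not name the software that summarised the probes. The median log2 difference of the arrays was -0.052 and values were used as deposited. Names came from the platform annotation of 2016 with symbols updated through a RefSeq gene table of GRCh38.p14. It gave 41091 probe sets with 1 gene, 1801 with several, 11721 without a name and 62 controls. Only the first were used. For the background level, 95% of 213 probe sets lie below it; they belong to 172 olfactory and taste receptor, keratin-associated, beta-defensin and cornified envelope genes assumed silent here. No test was possible with 1 array per condition. All members were named, and up to 5 genes of each related list by size of difference from 2-fold up; any other gene was picked with its values in view. The members and lists were chosen with earlier results of these data known. CD151 is in 2 lists. The gene table and calls were tested on simulated data with changes larger than 2-fold in bright genes. Recovery of changes near the 2-fold limit or near background was not tested. The software was matplotlib 3.10.9, statsmodels 0.14.6, pandas 2.3.3, numpy 2.4.6 and Python 3.11.15.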

Additional observations from a re-analysis of the deposited data

How the results depend on the processing

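The alternatives were quantile normalization, lowess correction, centring, scaling on 18 hybridisation control probe sets, averaged probe sets, specific probe sets, the probe set with the highest minimum, no floor, the 99th percentile as background, a pseudocount of 16 and a limit of 3-fold. Members higher numbered 3 with averaged probe sets, and members lower 4 with the hybridisation controls and 4 at 3-fold; other settings gave counts within 1.5 times of 5 and 9. The members' median was -0.0024 with the hybridisation controls, -0.018 with averaged probe sets, -0.032 with specific probe sets only and -0.83 with no floor. Over all genes, 3045 were higher and 906 lower with the hybridisation controls (77.1% of those called were higher, against 48.9%), 3622 and 4179 with no floor, and 791 and 795 at 3-fold. ITGA4, ITGA6, ITGA7, ITGA11, ITGA3, ITGA5 and LAMA2 kept their 2-fold call in every alternative that gave them a value. The ITGA2 difference turned to 0.056 at the 99th percentile, where the SB-OG background of 77.3 lies above the ITGA2 reading of 74.4 on control-OG. Of 230 values of members under an alternative, 188 moved by less than 0.45, the SD between probe sets. This count is partly fixed by the settings. The hybridisation controls shift every value by 0.48, over that limit. Averaging cannot change a gene with 1 probe set, and no floor cannot change one above background on both arrays. Array number, 1 per condition, limits every value, and dim genes have bounds only. No paired analysis was possible because each condition has 1 array.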

Other observations

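Several subunits gave readings that a reader may want to follow up by probe set. ITGB1 had 3 bright probe sets with differences from -1.19 to -0.68 and a dim one at 28.3 and 190.7, at least 2.55 higher on the log2 scale. ITGB8 rests on a single bright probe set, at 40.7 and 655.7, whose 4 others did not exceed 31.2. ITGAE, a subunit known from lymphocytes of epithelia, read 1625 and 1466, although ITGB7, its only known partner, read 10.5 and 6.28. ITGA4 differed by 4.59 while ITGB7, which can also pair with it, was under background on both arrays. LAMC1 gave 0.49 and -0.30 by its 2 probe sets.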
